A study of Bos taurus with 9 samples.

Results

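The mitochondrial ribosome (mitoribosome) reads the messenger RNAs of the mitochondrial genome, and in liver its products are core subunits of the respiratory chain and of ATP synthase. Its RNAs come from the mitochondrial genome, whereas all its proteins are encoded in the nucleus, made in the cytosol and imported. Large-subunit proteins carry MRPL symbols and small-subunit proteins MRPS symbols, with exceptions named further on, and the genes were grouped by symbol. The genes described here were the rows of the count table whose symbol begins with MRPL or MRPS followed by a digit. They were 78 of the 28786 genes listed, 49 with MRPL and 29 with MRPS symbols, and all 78 passed the filter on low counts in every comparison. None of the 78 was a differentially expressed gene (DEG) in any pair of conditions.

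Liver biopsies came from 9 lactating Holstein cows, taken on the twelfth day of treatment, with 1 poly(A) RNA library per cow and 3 cows per condition. Thermoneutral (TN) cows were kept at thermoneutrality, heat stress (HS) cows were held in hot conditions by day and warm ones by night, and pair-fed (PF) cows stayed at thermoneutrality with feed matched to the intake of the HS cows. HS against PF therefore compared heat at matched intake, PF against TN compared intake at the same temperature, and HS against TN compared both at once. The mean days in milk differed among the groups, so stage of lactation and condition cannot be told apart here, and the age of the animals was not given in the sources used here. Replicates were separate cows, and p-values set the difference between groups against the spread between cows.

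The libraries held 16874444 to 22557047 counts, and the 78 genes took 0.281 to 0.439% of them. Levels are given as CPM, the counts of a gene scaled to a library of common size (TMM normalization), and differences as log2 fold changes. One TN cow, replicate 1, stood apart. Its summed level of 8 hepatocyte markers was 17300 CPM against 60000 to 129000 in the other 8 cows. The drop was not shared by all 8 markers. APOA1 was at 842 CPM in this cow, above the other TN cows (276 and 513 CPM). APOB was at 974 CPM, within the 589 to 1270 CPM of the other cows. Genes of the mitochondrial genome took 22.2% of the counts of TN replicate 1, beside 13.6 and 18.3% in the other TN cows. Their share was 3.84 to 7.79% in the PF and HS cows. A liver biopsy is a mixture, so fewer cells of a type and less RNA per cell cannot be told apart. Of 5 skeletal muscle markers, MYH1 and ACTA1 were at 0 in all 9 cows, and MYH2, CKM and MYLPF had at most 2 counts in any cow. Of 4 red cell markers only 1, HBB, passed the filter on low counts. HBB had 7.83, 3.21 and 22.4 CPM in the TN cows and 0 to 2.12 CPM in the PF and HS cows. ALAS2 had 18, 3 and 0 counts in the TN cows and 0 to 5 in the others. HBA and HBA1 had 0 counts in every TN cow and at most 6 and 4 counts in the others.

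Cow TN replicate 1 was also the lowest of the 9 in most of these genes. It had the lowest level in 62 of the 78 (79.5%), 38 with MRPL and 24 with MRPS symbols, and the highest in 0. Over the 15073 genes that passed the filter in the 9 libraries, the same cow was lowest in 26.9% and highest in 23.1%. At the other end, HS replicate 3 was highest in 35 of the 78 and PF replicate 2 in 26. The TMM factor of TN replicate 1 was 1.33, beside 0.869 to 1.2 in the other cows, and a larger factor lowers CPM. As a share of raw counts, the genes other than MRPL23 took 0.188% in it and 0.241 and 0.229% in the other TN cows. In the PF and HS cows they took 0.228 to 0.297%. Their summed CPM was 1420 in TN replicate 1 and 2520 and 2460 in the other TN cows, a wider gap. HS replicates 1 and 2 had 0.272 and 0.242% of raw counts but 2260 and 2640 CPM. Since TN replicate 1 was lowest in most of the 78, counts and medians of gene lists compared with TN in pairs are given with and without it. Leaving out other cows also moved them.

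**Figure D1:**
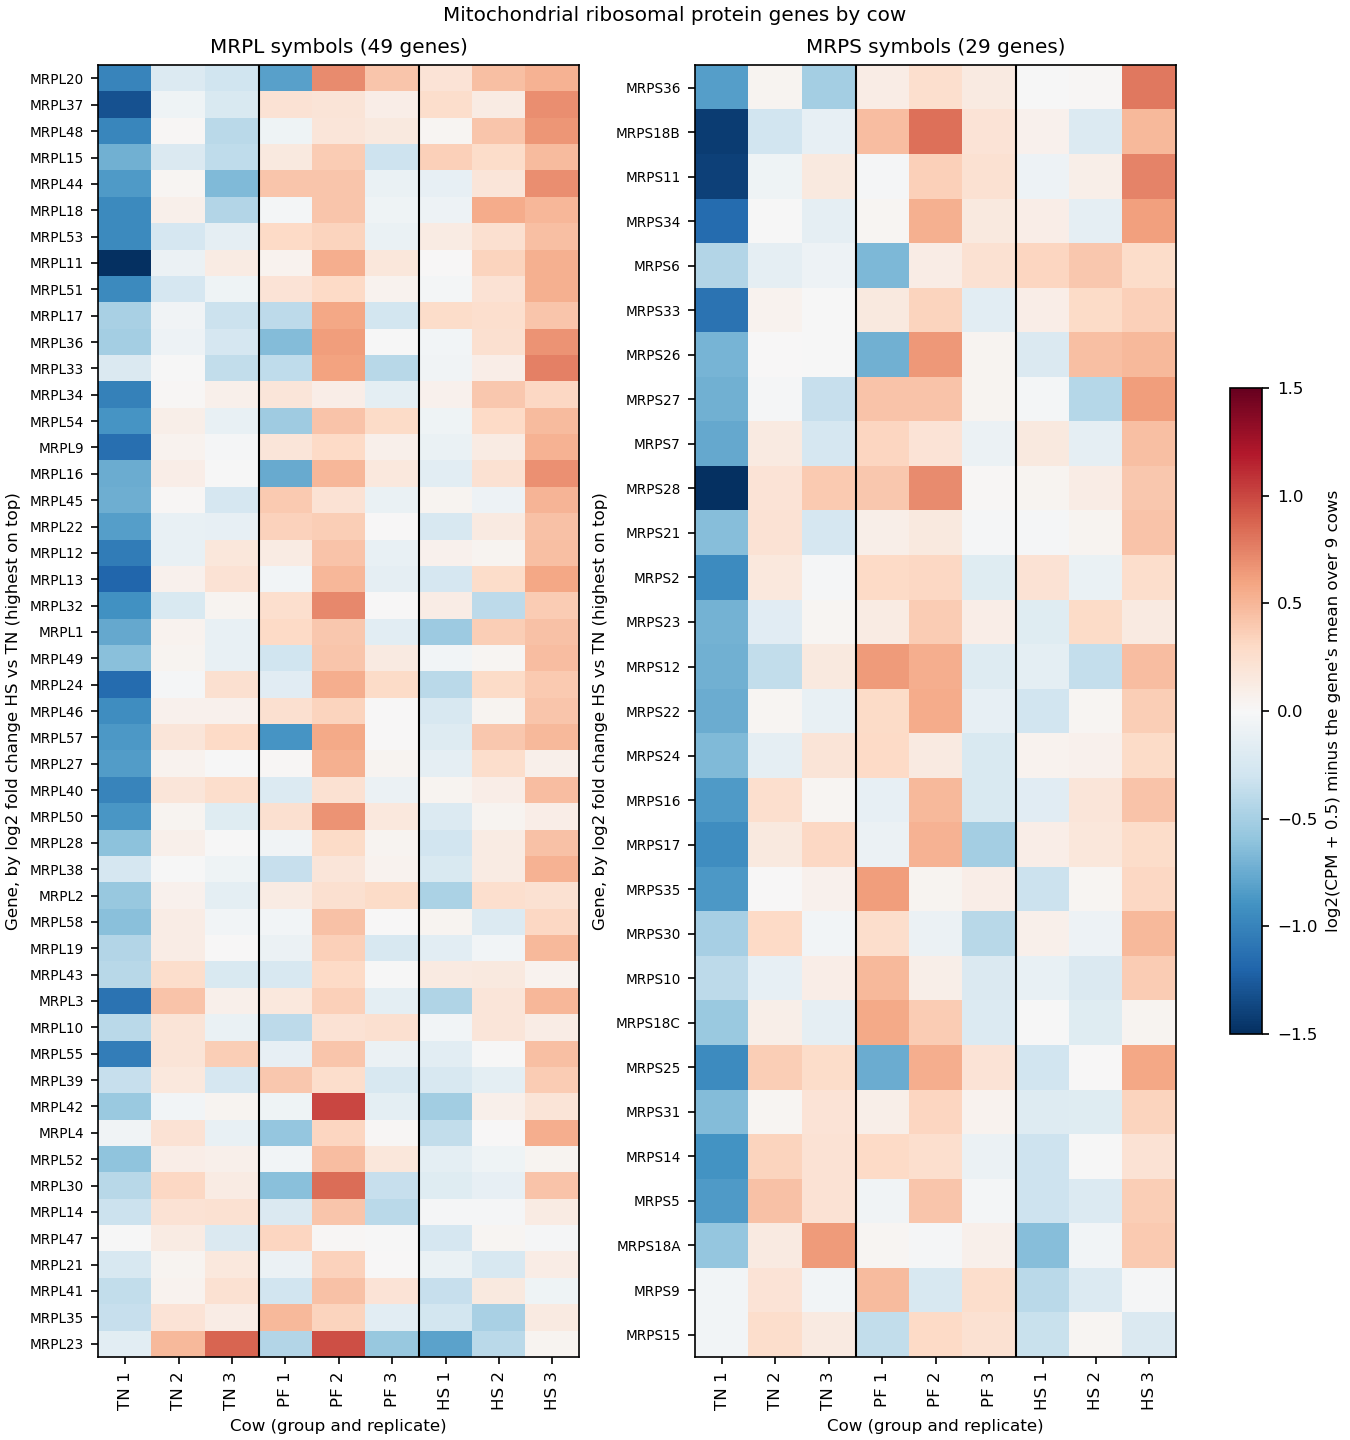
Level of each of the 78 genes (rows, ordered by log2 fold change in HS against TN) in each of the 9 cows (columns), as log2(CPM + 0.5) minus the mean of the gene over the 9 cows; blue is below and red above that mean. The column of TN replicate 1 is blue in most rows, and it is the lowest cow in 62 of the 78.

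The summed levels showed the same cow. Without MRPL23, which held the most counts of the 78 and is described on its own, the other 48 MRPL genes summed to 944, 1650 and 1610 CPM in the TN cows, 1500, 2130 and 1610 in the PF cows and 1480, 1790 and 2120 in the HS cows. The means were 1400 ± 399 (SD, n = 3) in TN, 1740 ± 336 in PF and 1790 ± 322 in HS, and the groups overlapped. The 29 MRPS genes summed to 478, 868 and 849 CPM in TN, 915, 1080 and 828 in PF and 788, 850 and 1080 in HS, with overlap again. The 26 of them whose proteins lie in the small subunit summed to 452, 823 and 800 CPM in TN, 872, 1040 and 789 in PF and 755, 811 and 1030 in HS. The ratio of HS to TN means was 1.28 for the MRPL and 1.24 for the MRPS genes with all cows, and 1.10 and 1.06 without TN replicate 1. The sum of the 8 hepatocyte markers had an HS to TN ratio of 1.64 with all cows and 1.22 without that cow. Of the 8 markers, 7 were estimated higher in HS, or 6 without that cow. Among the other cows the marker and MRPL sums did not keep the same order. PF replicate 1 had 120000 CPM of markers and 1500 of the 48 MRPL genes, and PF replicate 2 had 88800 and 2130. In HS replicate 3 both were high, at 129000 and 2120 CPM. The part of the markers in the result was not tested.

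**Figure D2:**
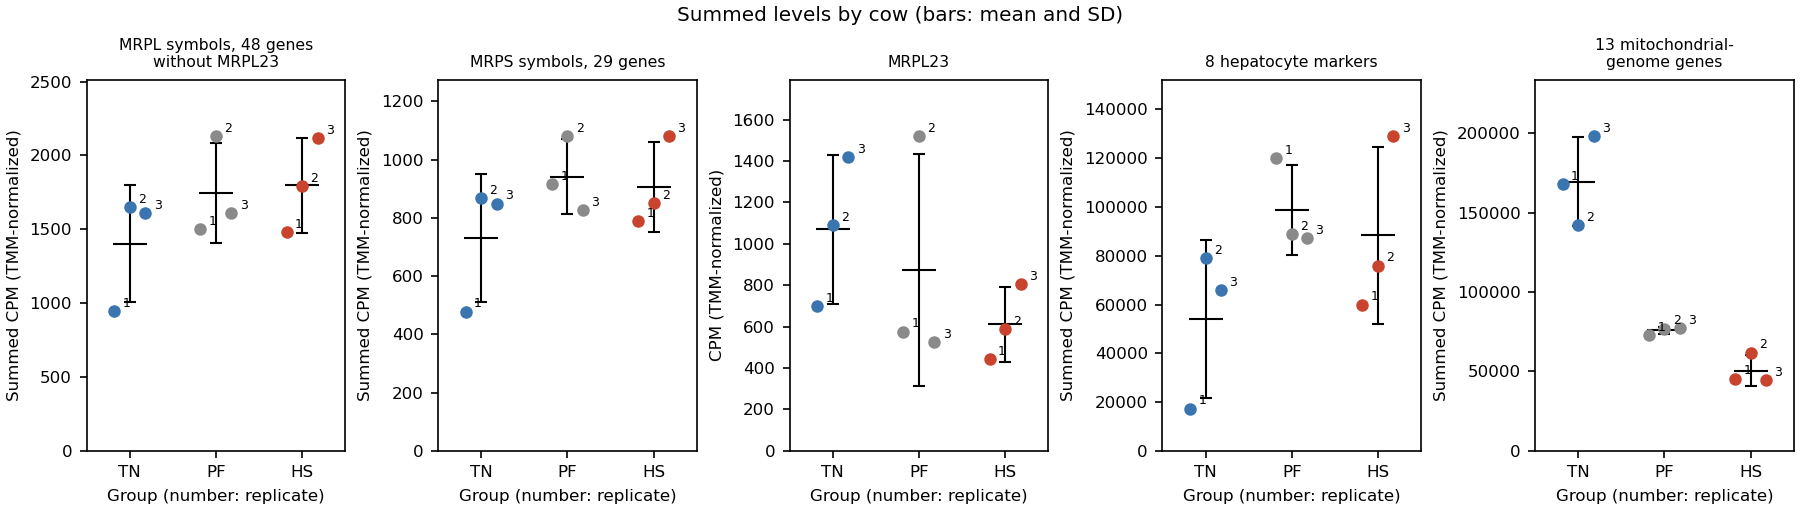
Summed CPM per cow (points, numbered by replicate) with the mean and SD of each group (bars) for 48 MRPL genes, 29 MRPS genes, MRPL23 alone, 8 hepatocyte markers and 13 mitochondrial-genome genes. TN replicate 1 is lowest in the MRPL and MRPS sums and in the hepatocyte markers, whereas the 3 groups separate fully in the mitochondrial-genome genes.

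In HS against TN, 67 of the 78 genes had a higher estimate in HS and 11 a lower one, with a median log2 fold change of 0.30 and a range of -0.82 to 0.86. Over all 14582 genes tested, 49.3% had a higher estimate and the median was -0.01. A DEG had a false discovery rate (FDR) under 0.1 by the edgeR quasi-likelihood test and a fold change over 1.5. By that rule 0 of the 78 were called, beside 13 of all genes (0.0892%), and the smallest FDR among the 78 was 0.352. At an unadjusted p under 0.05 there were 11, all higher in HS (14.1%, beside 4.13% of all genes higher at that p), 10 with MRPL and 1 with MRPS symbols; DESeq2 likewise called 0 and gave 11 at that p. Without TN replicate 1 the median was 0.08, 55 of the 78 were higher (51.2% of all genes), 0 were called (0.0269% of all genes), and 5 had an unadjusted p under 0.05, of which 4 were higher (3.19% of all genes) and 1, MRPL23, was lower (3.28% of all genes). The fewest at that p with 1 cow left out were 3, without HS replicate 3. The share of all genes was not counted in that fit.

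MRPL15, a large-subunit protein with a bacterial counterpart, had the smallest p of the 78 in HS against TN. Its levels were 10.4, 14.9 and 13.2 CPM in the TN cows, 19.3, 22.8 and 14.0 CPM in the PF cows and 22.4, 21.3 and 24.4 CPM in the HS cows. Every HS cow was above every TN cow, while the PF cows reached into both ranges. The edgeR log2 fold change of HS against TN was 0.81 (SE 0.22, FDR 0.352), and 0.69 without TN replicate 1. MRPL20, whose bacterial counterpart is needed early in large-subunit assembly, had 11.8, 20.7 and 19.3 CPM in TN, 13.4, 39.4 and 32.0 CPM in PF and 27.6, 32.9 and 34.6 CPM in HS. HS again lay wholly above TN, and the 3 PF cows spanned a wider range than either. Its log2 fold change of 0.86 (SE 0.25, edgeR FDR 0.392) was 0.66 without TN replicate 1.

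MRPL17, which lies near the exit of the tunnel through which the new protein leaves, had 28.4, 38.4 and 31.7 CPM in TN, 30.2, 59.7 and 32.8 CPM in PF and 48.3, 47.6 and 53.3 CPM in HS. The HS cows lay close together above all TN cows, and PF replicate 2 was higher still. The log2 fold change of HS against TN was 0.58 (SE 0.20, edgeR FDR 0.462). MRPL53, a mitochondrion-specific protein by the stalk that receives translation factors, had 18.4, 30.3 and 32.9 CPM in TN, 44.5, 45.5 and 33.6 CPM in PF and 39.3, 42.7 and 49.7 CPM in HS. Both the PF and the HS cows were above all TN cows. Its log2 fold change was 0.68 (SE 0.25, edgeR FDR 0.473) in HS against TN and 0.60 (SE 0.28, FDR 0.708) in PF against TN.

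MRPL48, of the central protuberance at the top of the large subunit, had 5.46, 11.4 and 8.41 CPM in TN, 10.7, 12.8 and 12.5 CPM in PF and 11.5, 15.3 and 18.2 CPM in HS. The lowest HS cow was just above the highest TN cow, and the log2 fold change of 0.82 (SE 0.31, edgeR FDR 0.477) was 0.59 without TN replicate 1. MRPL37, another mitochondrion-specific protein, had 14.6, 35.4 and 31.4 CPM in TN, 43.2, 42.2 and 39.5 CPM in PF and 44.4, 40.4 and 60.4 CPM in HS. All PF and HS cows exceeded all TN cows in this gene, by a wide gap only for TN replicate 1. The log2 fold changes of the other 4 genes at an unadjusted p under 0.05 in HS against TN were 0.73 for MRPL18, 0.58 for MRPL36, 0.74 for MRPL44 and 0.63 for MRPL51.

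MRPS6 was the only MRPS gene among the 11. It was also the only one of the 78 with all HS cows above all cows of both other groups. The share of all genes with that pattern was not counted. Over all genes, HS lay wholly above TN in 8.15% and wholly above PF in 5.89%. The bacterial counterpart of MRPS6 sits on the platform of the small subunit. Levels were 10.2, 12.8 and 13.4 CPM in TN, 8.70, 15.3 and 16.6 CPM in PF and 17.7, 18.8 and 17.2 CPM in HS. The HS cows were close to each other and the gap to the highest PF cow was small. The log2 fold change was 0.55 (SE 0.21, edgeR FDR 0.487) against TN and 0.40 (SE 0.27, FDR 1) against PF. In a newer bovine annotation, MRPS6 overlaps SLC5A3, an inositol transporter gene, which had 17.3, 9.65 and 10.1 CPM in HS and 4.92 to 8.59 CPM in the other 6 cows; whether reads of one were counted for the other was not tested.

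A fold change over 1.5 was estimated upward in 12 of the 78 (15.4%, beside 9.89% of all genes) and downward in 1, MRPL23 (13.1% of all genes). Without TN replicate 1 these counts were 3 upward (3.85%, beside 9.31% of all genes) and 1 downward (9.13% of all genes), so the upward share went from above to below that of all genes. Groups without overlap were counted over all 78. In HS against TN, 10 genes had every HS cow above every TN cow (12.8%, beside 8.15% of all genes in that direction) and 0 had every HS cow below (beside 8.04%). The 10 were MRPL15, MRPL17, MRPL20, MRPL36, MRPL37, MRPL48, MRPL51, MRPL53, MRPS6 and MRPS33. Without TN replicate 1, 10 genes were wholly above (12.8%, beside 11.5% of all genes) and 4 wholly below (5.13%, beside 11.7%), so that the upward share was near that of all genes.

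**Figure D3:**
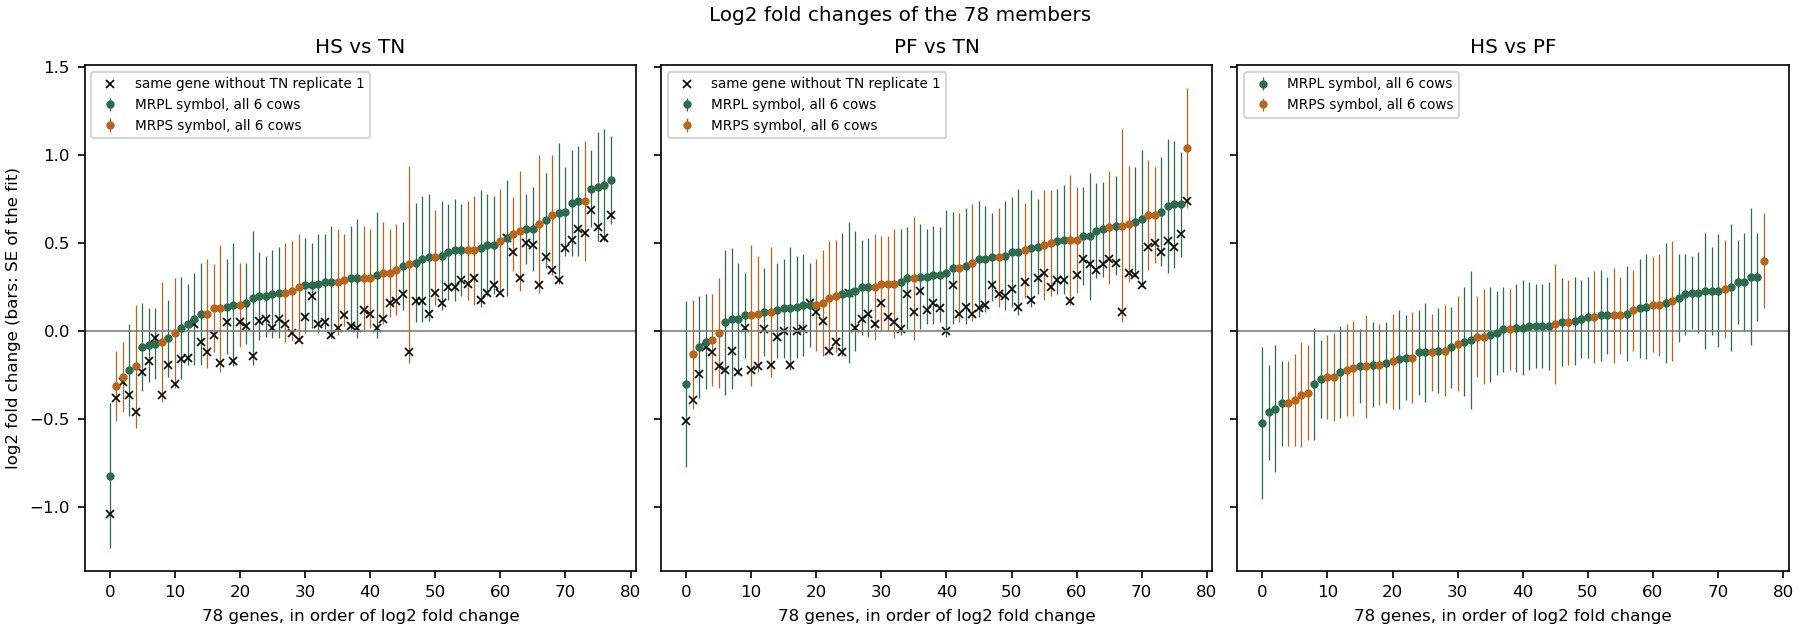
Log2 fold change of each of the 78 genes with the SE of the edgeR fit (bars), ordered within each comparison and coloured by MRPL or MRPS symbol; crosses mark the same genes refitted without TN replicate 1. In HS against TN and in PF against TN most points lie above 0 and most crosses lie closer to 0 than the points, and in HS against PF the points are spread about 0.

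PF against TN shares the TN cows with the comparison above. Of the 78 genes, 72 had a higher estimate in PF and 6 a lower one (48.8% of all genes higher), and the median log2 fold change was 0.32, with a range of -0.30 to 1.04. None of the 78 and none of the 14580 genes tested was called (0%), and 4 of the 78 had an unadjusted p under 0.05, all higher in PF (5.13%, beside 2.99% of all genes higher and 3.89% lower at that p). DESeq2 also called 0 and gave 3 at that p. In 12 genes every PF cow was above every TN cow (15.4%, beside 6.80% of all genes), and in 0 below (6.4% of all genes). A fold change over 1.5 was estimated upward in 13 (16.7%, beside 9.33% of all genes) and downward in 0 (13.4% of all genes). With 1 cow left out at a time, the number of the 78 higher in PF was lowest, at 55, without PF replicate 2. The share of all genes was not counted in that fit. Without TN replicate 1 the median was 0.14, with 61 of the 78 higher (50.7% of all genes) and 1 at an unadjusted p under 0.05, higher in PF (1.92% of all genes), and 0 were called (0% of all genes). A fold change over 1.5 upward was then left in 1 gene (1.28%, beside 7.94% of all genes) and downward in 0 (10.4%), and the groups lay apart with PF above in 13 genes (16.7%, beside 9.73%) and PF below in 1 (1.28%, beside 10.1%). The hepatocyte marker sum was 1.82 times as high in PF as in TN with all cows and 1.36 times without that cow, with 8 of 8 markers estimated higher in PF; their part in the result was not tested.

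The gene left at that threshold was MRPS18B. It is 1 of 3 mammalian genes related to bacterial S18, the others being MRPS18A, whose protein was found in the large subunit despite its name, and MRPS18C. MRPS18B had 13.3, 30.0 and 33.6 CPM in TN, 50.8, 65.3 and 42.6 CPM in PF and 38.3, 31.8 and 51.7 CPM in HS. All PF cows were above all TN cows, and the HS cows overlapped both. Its log2 fold change in PF against TN was 1.04 (SE 0.34, edgeR FDR 0.697), and 0.74 without TN replicate 1. MRPS18C had 7.11, 11.4 and 9.66 CPM in TN, 16.2, 14.1 and 9.22 CPM in PF and 10.6, 9.41 and 11 CPM in HS. MRPS18A had 13.6, 22.8 and 32.6 CPM in TN, 21.1, 20.3 and 21.8 CPM in PF and 13.1, 20.1 and 27.3 CPM in HS. The groups overlapped in both of these paralogs, and their log2 fold changes of HS against TN, 0.13 (SE 0.25) for MRPS18C and -0.20 (SE 0.35) for MRPS18A, changed sign when 1 cow was left out. Leaving out TN replicate 1 gave -0.02 for MRPS18C, and leaving out TN replicate 3 or HS replicate 1 gave 0.13 or 0.03 for MRPS18A.

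The other 3 genes at an unadjusted p under 0.05 in PF against TN were MRPS27, MRPL44 and MRPL50. MRPL22, at the exit tunnel, came close with 12.3, 20.5 and 20.4 CPM in TN and 28.3, 28.8 and 22.2 CPM in PF, where all PF cows exceeded all TN cows. MRPS27, an RNA-binding protein of the small subunit, had 10.8, 17.9 and 14.2 CPM in TN, 24.5, 24.6 and 18.7 CPM in PF and 17.8, 13.3 and 28.3 CPM in HS. The PF cows were above the TN cows and the HS cows overlapped both groups, with a log2 fold change in PF against TN of 0.66 (SE 0.27, edgeR FDR 0.708). MRPL44, a relative of ribonuclease III by the tunnel exit, had 9.40, 17.7 and 10.7 CPM in TN, 23.3, 23.2 and 16.1 CPM in PF and 15.8, 19.7 and 28.4 CPM in HS. Here TN replicate 2 lay inside the ranges of PF and of HS. Its log2 fold change was 0.72 (SE 0.30, FDR 0.708) in PF and 0.74 (SE 0.31, FDR 0.509) in HS, both against TN by edgeR. MRPL50, a mitochondrion-specific protein, had 7.02, 13.7 and 11.7 CPM in TN, 15.7, 21.4 and 14.8 CPM in PF and 11.5, 13.6 and 14.3 CPM in HS. It was the only one of the 78 in which all HS cows were below all PF cows, by a small gap, and all PF cows were also above all TN cows.

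**Figure D4:**
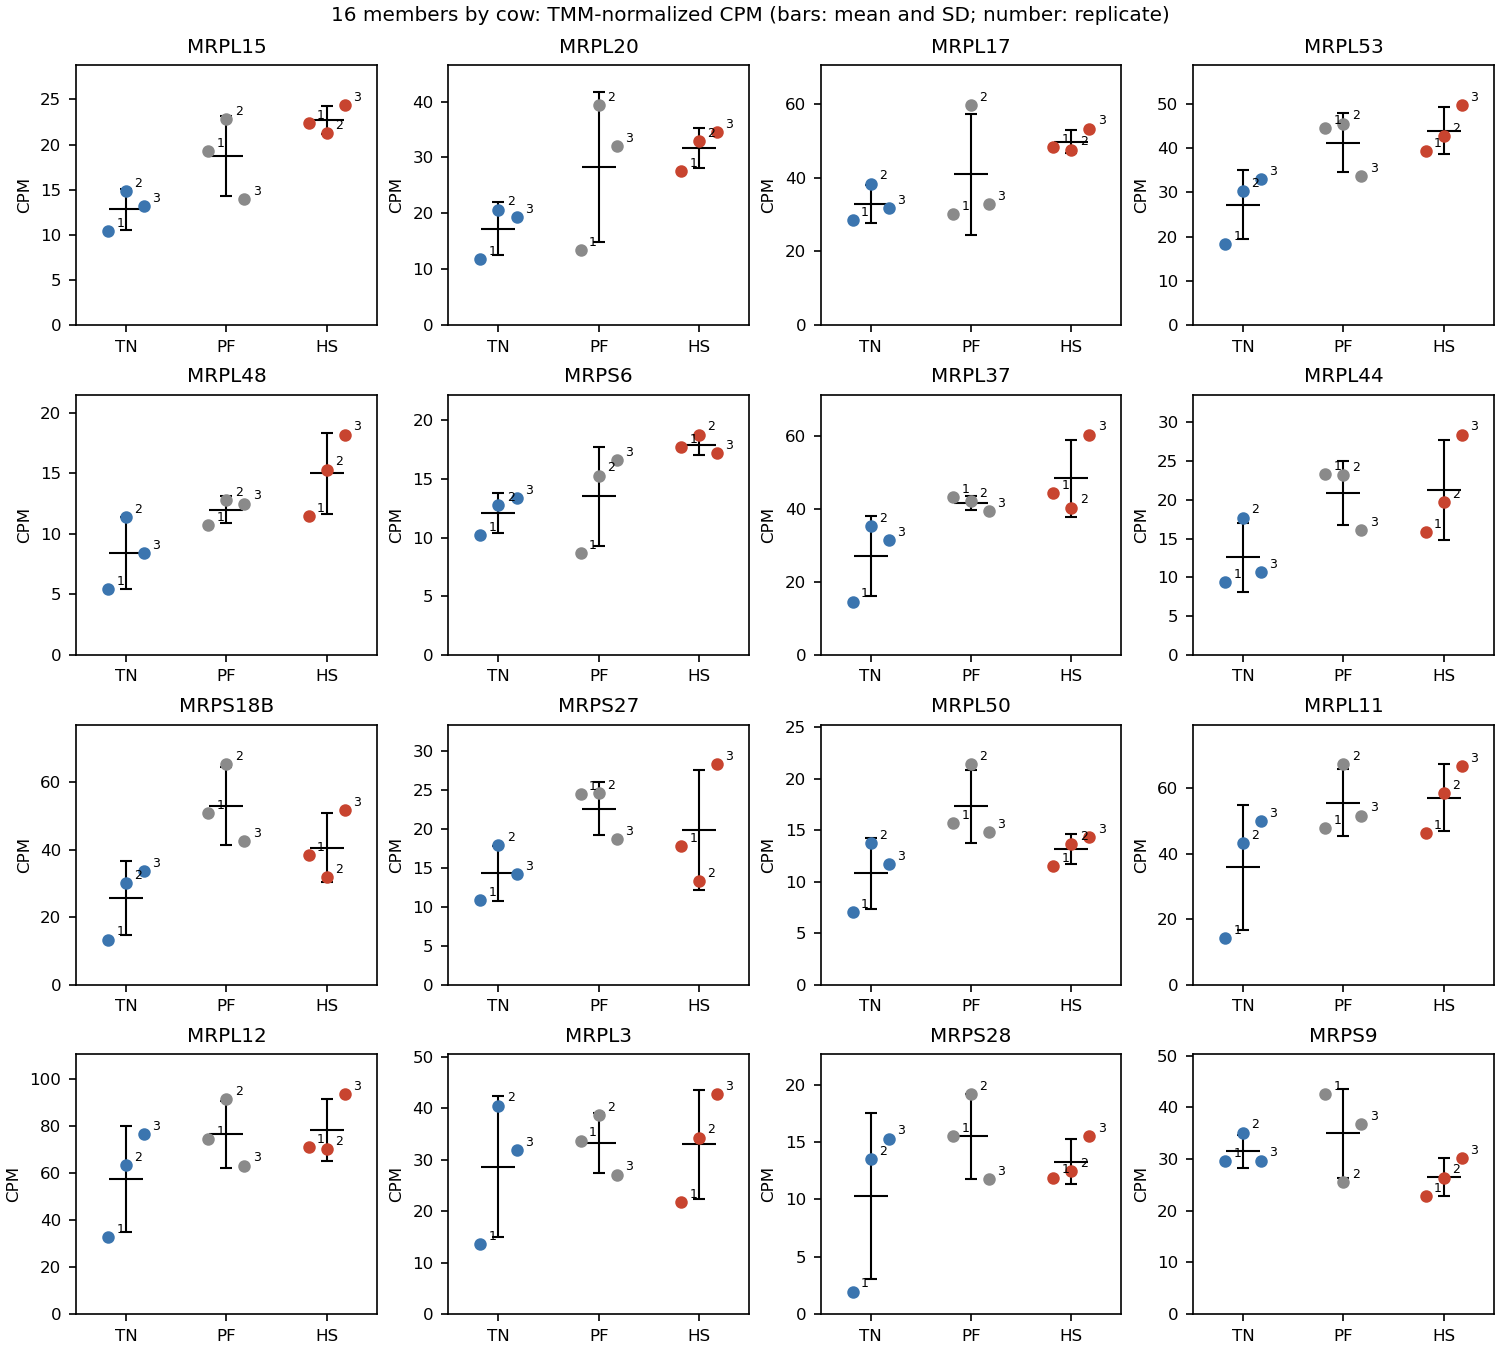
CPM of 16 of the 78 genes in each cow (points, numbered by replicate), with the mean and SD of each group (bars); each panel has its own axis from 0. In MRPL15, MRPL20 and MRPL17 the 3 HS cows lie above the 3 TN cows, and in MRPS28 TN replicate 1 lies far below the other 8 cows.

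Between HS and PF the 78 genes did not separate. The estimate was higher in HS for 41 and lower for 37, with a median log2 fold change of 0.01 and a range of -0.52 to 0.40, beside 50.9% of all 14510 genes higher and a median of 0.01. None was called by edgeR or by DESeq2 (4 of all genes by edgeR, 0.0276%), and none had an unadjusted p under 0.05 by either tool, beside 5.32% of all genes by edgeR. Every HS cow was above every PF cow in 1 gene, MRPS6 (5.89% of all genes), and below in 1, MRPL50 (4.65% of all genes). The smallest p-values belonged to MRPL35 (log2 fold change -0.46, SE 0.27), MRPL50 (-0.41, SE 0.24), MRPS9 (-0.41, SE 0.24), MRPS18B (-0.39, SE 0.26), MRPS6 (0.40, SE 0.27) and MRPS18C (-0.35, SE 0.27), each with an FDR of 1. The median SE over the 78 was 0.26, so differences of that order were within the error of a single gene. The split between higher and lower genes depended on the cows and ran from 20 higher without HS replicate 3 to 53 higher without PF replicate 2. It was 27 without PF replicate 1 and 25 without PF replicate 3.

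A test over the 3 groups at once gave 0 of the 78 at an FDR under 0.1, beside 7 of 15073 genes (0.0464%), and 5 at an unadjusted p under 0.05 (7.86% of all genes at that p). MRPL15 had the smallest p of the 78, 0.0165, with an edgeR FDR of 0.54.

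The proteins were also followed by place in the ribosome. The 5 stalk proteins had higher estimates in HS than in TN in 5 of 5, with a median log2 fold change of 0.49, and 1 of them, MRPL53, had an unadjusted p under 0.05 (4.13% of all genes higher at that p). All 5 estimates were also higher without TN replicate 1, with a median of 0.26. MRPL12, the stalk protein that also binds the mitochondrial RNA polymerase, had 32.8, 63.5 and 76.9 CPM in TN, 74.6, 91.8 and 63.3 CPM in PF and 71.3, 70.2 and 93.9 CPM in HS. MRPL11, at the base of the stalk, had 14.2, 43.3 and 50.1 CPM in TN, 47.9, 67.4 and 51.7 CPM in PF and 46.2, 58.5 and 66.7 CPM in HS. In both, TN replicate 1 was far below the other cows and the groups overlapped.

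At the rim of the exit tunnel 6 of 8 proteins had higher estimates in HS than in TN (median 0.39), and around the peptidyl transferase centre, which joins amino acids, 4 of 4 did (median 0.21). Leaving out TN replicate 1 gave 6 of 8 (median 0.15) and 3 of 4 (median 0.06). In the central protuberance 6 of 6 were higher in HS (median 0.29), or 5 of 6 without TN replicate 1 (median 0.13). At an unadjusted p under 0.05 by edgeR there were 2 of these 6 and 2 of the 8 rim proteins, all higher (4.13% of all genes). Without TN replicate 1 there were 0 and 2, of which 1 was higher (3.19% of all genes) and 1 lower (3.28%). MRPL45, which ties the ribosome to the inner membrane, had 16.2, 27.7 and 22.8 CPM in TN, 35.9, 31.7 and 25.5 CPM in PF and 28.1, 25.8 and 39.0 CPM in HS. TN replicate 2 lay within the ranges of both other groups. MRPL3, close to the peptidyl transferase centre, had 13.6, 40.5 and 31.8 CPM in TN, 33.7, 38.7 and 27.1 CPM in PF and 21.8, 34.3 and 42.8 CPM in HS. Its log2 fold change of 0.19 (SE 0.38) in HS against TN became -0.14 without TN replicate 1 and -0.04 without HS replicate 3. MRPL58, a peptidyl-tRNA hydrolase built into the large subunit, had 20.2, 33.9 and 30.6 CPM in TN, 30.5, 42.7 and 31.6 CPM in PF and 32.4, 27.2 and 39.0 CPM in HS, with all groups overlapping.

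Of the MRPS genes, 24 of 29 had higher estimates in HS than in TN and 26 of 29 in PF than in TN, with a median of 0.30 in both. With TN replicate 1 left out these were 18 of 29 (median 0.07) and 21 of 29 (median 0.11). MRPS12, of the decoding centre, had 12, 15.6 and 22.3 CPM in TN, 31.7, 29.7 and 17.5 CPM in PF and 18.2, 15.6 and 27.9 CPM in HS. MRPS2 had 27.1, 58.4 and 51.6 CPM in TN, 64.3, 65.1 and 46.2 CPM in PF and 61.0, 49.1 and 62.9 CPM in HS. Neither gene separated any of the groups. MRPS34, a mitochondrion-specific protein needed for a stable small subunit, had 36.5, 81.5 and 74.6 CPM in TN, 83.7, 119 and 90.8 CPM in PF and 87.5, 74.4 and 126 CPM in HS. Its PF cows were all above its TN cows, by a small gap to TN replicate 2. MRPS16 and MRPS22 ranged from 21.5 to 55.3 CPM and from 8.41 to 21.4 CPM, each lowest in TN replicate 1 and highest in PF replicate 2.

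In MRPS28, whose bacterial relative is ribosomal protein S1, a single cow lay furthest from the mean of its gene. TN replicate 1 had 44 counts, 1.97 CPM, and the other 8 cows had 11.8 to 19.2 CPM. Its log2 fold change in HS against TN was 0.38 (SE 0.56) with that cow and -0.12 without it. This gene was chosen after its values were seen.

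By evolutionary class, 38 of 48 proteins with a bacterial counterpart and 28 of 29 mitochondrion-specific ones had higher estimates in HS than in TN, and the medians were 0.29 and 0.30. In PF against TN the counts were 43 of 48 and 28 of 29, with medians of 0.27 and 0.39. When TN replicate 1 was left out they were 32 of 48 and 22 of 29 in HS against TN (medians 0.07 and 0.10), and 35 of 48 and 25 of 29 in PF against TN (medians 0.11 and 0.16). MRPS36 belongs to neither class, since its protein is a part of the α-ketoglutarate dehydrogenase complex of the citric acid cycle. It had 4.65, 8.89 and 5.90 CPM in TN, 9.41, 10.4 and 9.53 CPM in PF and 8.64, 8.77 and 15.3 CPM in HS. All PF cows were above all TN cows, and the log2 fold change of HS against TN was 0.74 (SE 0.34, edgeR FDR 0.526). MRPS30, whose protein lies in the large subunit despite its symbol, had 7.47, 13.3 and 10.4 CPM in TN, 13, 10.1 and 7.95 CPM in PF and 11.3, 10.1 and 15.3 CPM in HS, and no group stood apart.

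MRPL23 had the lowest log2 fold change of the 78 in all 3 comparisons. It lies beside the imprinted H19 and IGF2 genes, and its levels were 700, 1090 and 1420 CPM in TN, 576, 1520 and 525 CPM in PF and 445, 588 and 804 CPM in HS. The HS cows were lower on average, but HS replicate 3 exceeded TN replicate 1, and the PF cows held both the highest level and levels inside the HS range. The log2 fold change in HS against TN was -0.82 (SE 0.41, edgeR FDR 0.541), the only one of the 78 below a 1.5-fold decrease, and it was -1.04 (SE 0.35, FDR 0.676) without TN replicate 1. With MRPL23 included, the sum of the 49 MRPL genes was 2470 ± 735 CPM in TN, 2620 ± 893 CPM in PF and 2410 ± 502 CPM in HS (SD, n = 3), so this 1 gene brought the ratio of HS to TN from 1.28 to 0.972. In the newer annotation MRPL23 overlaps LOC101902793, which had 6.55 to 11.5 CPM in TN, 1.42 to 7.29 CPM in PF and 1.44 to 7.78 CPM in HS; whether shared reads entered the MRPL23 counts was not tested. H19 had 37.4, 12.7 and 11.1 CPM in TN and 5.92 to 24.5 CPM in the other 6 cows. It was highest in the TN cow with the lowest MRPL23 level. PF replicate 2, with the highest MRPL23 level of all cows, had 24.5 CPM of H19, the highest outside TN. IGF2 had 1530 to 2250 CPM in TN, 1220 to 2170 CPM in PF and 1490 to 3120 CPM in HS.

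PF replicate 1 was at neither end more often than over all genes. It was the lowest of the 9 cows in 9 of them (MRPL4, MRPL16, MRPL30, MRPL36, MRPL38, MRPL57, MRPS6, MRPS15 and MRPS26) and the highest in another 9 (MRPL35, MRPL39, MRPL47, MRPS9, MRPS10, MRPS12, MRPS18C, MRPS24 and MRPS35), which is 11.5% each, beside 17.2% and 16% of all genes. For example, MRPL57, which had 61.1 to 136 CPM in TN and 97.0 to 157 CPM in HS, had 59.8 CPM in this cow and 165 and 111 CPM in the other PF cows, whereas MRPS10 had 64.6 CPM in it and 48.6 and 39.4 CPM in the others. The median SD within groups was 0.39 on the log2 scale both for the 78 genes and for all genes. In TN alone it was 0.44 for the 78 and 0.37 for all genes.

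The other genes of mitochondrial translation were described by lists. Of 6 mitoribosomal proteins under other symbols, 6 had higher estimates in HS than in TN (median 0.17), or 5 without TN replicate 1 (median 0.09), and 0 had an unadjusted p under 0.05. They include GADD45GIP1 with 21.2, 53.1 and 54.9 CPM in TN and 51.0, 52.4 and 70.0 CPM in HS, and its lowest cow was again TN replicate 1. Of 31 factors that assemble the mitoribosome or modify its RNA, 19 had lower estimates in HS (median -0.14), and 4 had an unadjusted p under 0.05, all lower (5.23% of all genes lower at that p). Without TN replicate 1, 21 had lower estimates (median -0.13) and 2 had an unadjusted p under 0.05, both lower (3.28% of all genes). GTPBP6, a GTPase of large-subunit assembly and ribosome recycling, had 97.8, 60.3 and 77.6 CPM in TN and 38.6, 31.0 and 54.1 CPM in HS, so that all HS cows were below all TN cows (log2 fold change -0.95, SE 0.29, edgeR FDR 0.396, and -0.74 without TN replicate 1). MTG1, another GTPase of large-subunit assembly, had 72.0, 42.7 and 50.1 CPM in TN and 30.3, 35.3 and 30.7 CPM in HS (-0.80, SE 0.25, FDR 0.417, and -0.53 without TN replicate 1). In both of these genes TN replicate 1 was the highest cow, the reverse of its place among the ribosomal proteins.

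Of 18 mitochondrial translation factors, 11 had higher and 7 lower estimates in HS than in TN (median 0.10), or 10 and 8 without TN replicate 1 (median 0.04). MTRF1L, a release factor, had a log2 fold change of -0.57 (SE 0.22, edgeR FDR 0.481) and MRRF, the recycling factor, 0.61 (SE 0.36, FDR 0.587), which was 0.31 without TN replicate 1. Of 20 genes for aminoacyl-tRNA synthetases of mitochondria and related enzymes, 9 had higher and 11 lower estimates (median -0.03, and -0.06 with the same counts without TN replicate 1), among them MARS2 with 1.04 (SE 0.33, FDR 0.439) and VARS2 with -0.73 (SE 0.27, FDR 0.473), which was -0.41 without that cow. No gene of these lists was called by edgeR.

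The mitochondrial genome's own 13 protein-coding genes, the messages that the mitoribosome reads, had estimates in the opposite direction to most of the 78. Their summed level was 168000, 142000 and 198000 CPM in TN, 73000, 76900 and 77500 CPM in PF and 45500, 61800 and 44300 CPM in HS. The groups did not overlap, and TN replicate 1 lay within its group here. All 13 had lower estimates in HS than in TN, with a median log2 fold change of -1.45 (-1.37 without TN replicate 1), and 12 had an unadjusted p under 0.05 (5.23% of all genes were lower at that p), yet edgeR called 0 of them, with a smallest FDR of 0.249, while DESeq2 called 13. The smallest p-values were those of ND6 (-1.99) and ND4L (-1.27), which encode subunits of complex I. Against these, the 77 cytosolic ribosomal protein genes had a median of 0.26 in HS against TN and 0.35 in PF against TN, with 63 and 73 of 77 higher, and -0.07 in HS against PF. These medians were 0.09 and 0.15 without TN replicate 1, with 46 and 60 of 77 higher. Their sum had its lowest value, 25600 CPM, in TN replicate 1 as well, and 39200 to 56000 CPM in the other 8 cows.

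**Figure D5:**
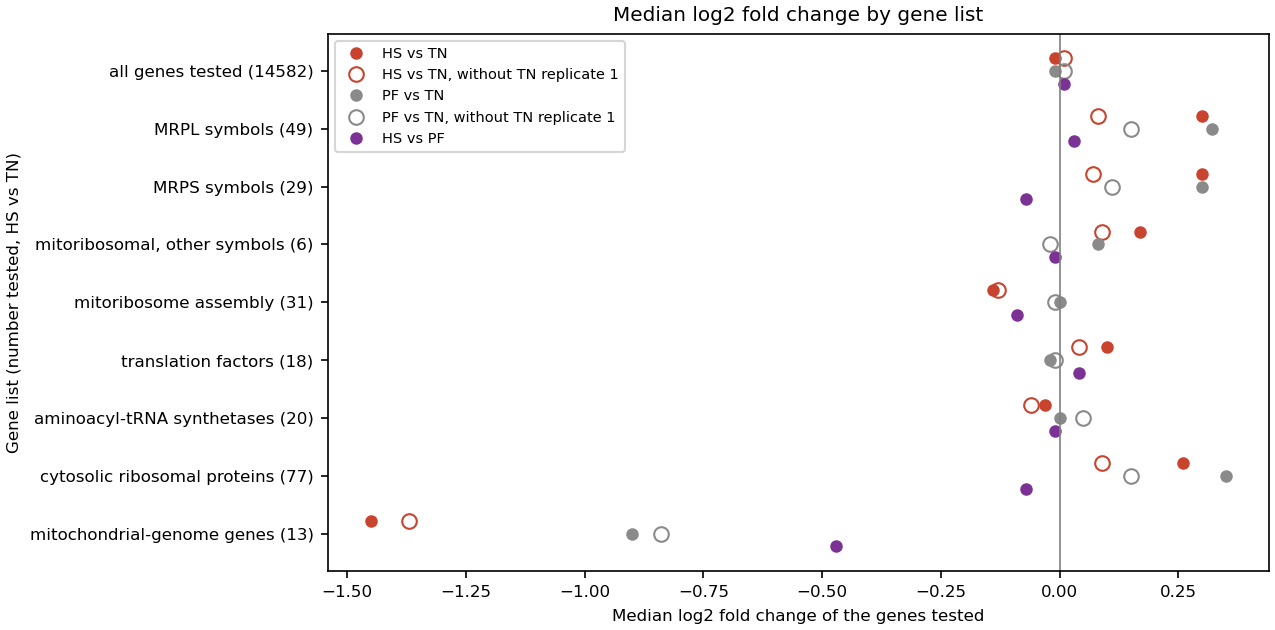
Median log2 fold change of each gene list (rows, with the number of genes tested) in the 3 comparisons (filled points) and without TN replicate 1 (open points). The MRPL and MRPS lists and the cytosolic ribosomal proteins lie near 0.3 in both comparisons with TN and closer to 0 without that cow, whereas the mitochondrial-genome genes stay far below 0.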

How the data were processed

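The deposited file holds raw counts of reads per gene, made by the authors with fastp 0.23.2, STAR 2.7.9a and featureCounts 2.0.3 on ARS-UCD1.2; annotation release, strand and multi-mapping settings were not given in the sources used here. All columns were mapped to a cow by their labels. Totals were 16874444 to 22557047 counts. Each pair of groups (6 libraries) was fitted with edgeR 4.0.16 in R 4.3.3: TMM, filterByExpr, quasi-likelihood F test, with p-values adjusted by Benjamini and Hochberg's method across every gene of the fit. A call needed a fold change over 1.5 at an FDR under 0.1. CPM used TMM factors of the 9 libraries, and log2 levels an offset of 0.5. The fit was tried on simulated data with larger changes than any estimated for the 78, so that trial gives no power for changes of their size. DESeq2 1.42.0, other scalings, filters and thresholds, a joint fit, a replicate block and leaving out each cow were tried. Same-numbered cows of different groups were different animals, with correlations of their deviations from -0.22 to 0.24. Whether the numbers link a PF cow to the HS cow whose intake it was matched to was not given in the labels. The main fit therefore used no pairing. In each comparison the named genes were the 6 with the smallest p, a set fixed by role, the 3 with the most counts and, of each pathway list, the 2 with the smallest p in HS against TN; MRPL37, MRPS10, MRPS28, MRPL18, MRPL36, MRPL51 and the other members listed by name were added after their values were seen. The genes, lists and roles were chosen with earlier results of these data known. RefSeq names (ARS-UCD2.0) matched 78 of 78 genes, 23 of which overlap another gene there; reads of overlapping genes or pseudogene copies may be uncertain. Levels were not compared between genes, as transcript lengths were not used here.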

Additional observations from a re-analysis of the deposited data

How the results depend on the processing

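No alternative called any of the 78 genes. Of 690 values of single genes recomputed, 682 kept their direction and side of the threshold, and 5 changed direction, all when a single cow was dropped. In HS against TN these log2 fold changes ran from -0.14 to 0.53 for MRPL3, from -0.02 to 0.30 for MRPS18C and from -0.48 to 0.13 for MRPS18A; the cause was not tested. Leaving out 1 cow moved the median of the 78 from 0.08 to 0.46 in HS against TN, from -0.17 to 0.13 in HS against PF and from 0.14 to 0.48 in PF against TN, and the number at an unadjusted p under 0.05 from 3 to 15, from 0 to 2 and from 1 to 9. Fewest in HS against TN were left without HS replicate 3 (3), TN replicate 1 (5), HS replicate 2 (6) and TN replicate 3 (7). In PF against TN the number was 1 without TN replicate 1 or PF replicate 2, 2 without PF replicate 1, 8 without TN replicate 2 and 9 without PF replicate 3, and 8 with no filter on low counts or with all 9 libraries in 1 fit, against 4. The replicate block used numbers not known to pair cows and called 0 of the 78 in each comparison. It gave 16, 0 and 7 at that p in HS against TN, HS against PF and PF against TN. DESeq2 called 13, 3 and 5 of the 13 mitochondrial-genome genes in HS against TN, HS against PF and PF against TN, ND6 (-1.96) and ND4L (-1.24) among them, and 1 cytosolic ribosomal protein gene in PF against TN, where edgeR called 0; edgeR with no filter called 1 mitochondrial-genome gene, ND6, in HS against TN. Without MRPL23 the sum of the MRPL genes was 1400 CPM in TN and 1790 CPM in HS. With 3 cows per group and a median SE of 0.26 to 0.31 for log2 fold changes of the 78, differences near the medians were not detectable for single genes.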
